A study of Mus musculus with 4 samples.

Results

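The proteasome genes were followed in mRNA of the medial prefrontal cortex (mPFC) of C57BL/6 mice (substrain C57BL/6J in the methods of the study). The genes were taken by name, as rows whose symbol was Psm, a letter from a to g and a number. This gave 48 of the 17778 genes in the table, and 46 of them were among the 14257 genes whose mean reached 0.5 RPKM in control, in CUMS or in both. These are called tested genes below. RPKM is the number of reads relative to gene length in kilobases and to library size, so that levels of different genes can be compared per length. The CUMS group (2 libraries) came from juvenile male mice that had gone through chronic unpredictable mild stress (CUMS), a schedule of changing mild stressors, and had shown depression-like behavior in tests. The control group (2 libraries) came from mice of the same strain, sex and age class without that stress, and neither group carried a transgene. No drug treatment was part of the comparison, and all mice were under isoflurane anesthesia when the tissue was taken. The CUMS mice had been kept because they showed the behavior, so the group stands for the stressed mice that became depression-like and not for every stressed mouse. The table held the authors' mean of each group and no value of a single library, which leaves no replicate check, no error between mice and no test for any difference below.

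The 26S proteasome is the large protease that degrades proteins tagged with ubiquitin, and in neurons it takes part in protein quality control and in the turnover of synaptic proteins. Its 20S core is a barrel of alpha rings around beta rings, and the beta subunits Psmb5, Psmb6 and Psmb7 hold the cutting sites. The 19S regulatory particle has a base, with a ring of ATPases (Psmc genes) that unfolds the substrate, and a lid (Psmd genes) that removes the ubiquitin chain. In immune cells and after interferon, Psmb8, Psmb9 and Psmb10 replace the 3 cutting subunits and form the immunoproteasome, which favors peptides for antigen presentation. Other members are activators that open the core (Psme genes), the inhibitor protein Psmf1, and chaperones that help to assemble the base (Psmd5, Psmd9, Psmd10) or the core (Psmg genes).

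The genes of the complex are known to be raised together by the transcription factor Nfe2l1, which binds the antioxidant response element, and the promoters were therefore looked at for this string. RefSeq promoters on GRCm38.p6, which run from 250 bases before to 50 bases after the start site, were found for 40 member genes, with 43 promoters in all. The string TGACNNNGC on either strand was present in 6 of these 43 promoters (14.0%), against 12.4% of all 32851 promoters. It is shown in capitals in windows of 30 bases, written 5′ to 3′ on the strand of the gene, so that GC comes first where the string lies on the other strand.
Psmd9, chr5:123228149-123228178, plus strand: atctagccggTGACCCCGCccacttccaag
Psme4, chr11:30771758-30771787, plus strand: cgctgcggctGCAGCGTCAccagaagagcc
Psmb6, chr11:70525338-70525367, plus strand: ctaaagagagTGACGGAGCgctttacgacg
Psmd12, chr11:107479278-107479307, plus strand: tctGCTGTGTCAcatttgcccccctcagac
Psmc6, chr14:45329587-45329616, plus strand: ccagccagtaGCTAAGTCAggcattgctca
Psmb5, chr14:54618023-54618052, minus strand: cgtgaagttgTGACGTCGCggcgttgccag

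A string of the ETS family of transcription factors, CCGGAAG, was present in 15 of the 43 member promoters (34.9%) and in 8.86% of all promoters, on either strand. The 14 genes with it came from the core, the base, the lid, the activators and the core chaperones. The windows below are those of the 3 carriers whose counting interval, given later, did not hold 0, with the string or its reverse complement in capitals. Psmc2 has a pair of start sites in the table, and the window of the downstream start is shown.
Psmc2, chr5:21786713-21786742, plus strand: cgcggagctaCTTCCGGtggggaagagaaa
Psmd12, chr11:107479501-107479530, plus strand: gagcgggcgaCTTCCGGtgcgagtgacgag
Psme4, chr11:30771712-30771741, plus strand: tggccccgccCCGGAAGtgacttgaggccg

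Of the other strings searched on both strands, GGGCGG (Sp1) was in 24 member promoters (55.8%, against 35.7% of all), GAAANNGAA (interferon response) in 7 (16.3%, against 8.56%), CCAAT (NF-Y) in 14 (32.6%, against 37.4%), CACGTG (E-box) in 4 (9.30%, against 7.15%) and TGAGTCA (AP-1) in 1 (2.33%, against 5.20%). The CREB string TGACGTCA was in 0 of them and in 1.79% of all promoters. All promoters include those of noncoding genes, the strings can overlap one another, and a match describes letters only. Among the 6 genes with the Nfe2l1 string the median log2 ratio of CUMS to control means was -0.081. Among the 14 genes with the ETS string it was 0.0027, with 9 of them higher in CUMS. Of all 46 tested members 28 were higher, a share near that of the ETS carriers, and of all tested genes 46.6% were.

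The first comparison asked whether the proteasome genes as a set differed between depression-like and control mice. Of the 46 members, 28 had a higher mean in CUMS and 18 a lower one, while 46.6% of all tested genes were higher and 53.2% were lower. The median log2 ratio of the members was 0.0079, against -0.015 over all tested genes, and the summed level of the members came to 2289 RPKM in control and 2284 in CUMS. Their log2 ratios ran from -0.32 (Psmd9) to 0.75 (Psmb9), with a median size of 0.094, against 0.13 over all tested genes. The members were thus spread on both sides of equal levels, and the sum of all of them differed by less than 1% between the groups.

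**Figure D1:**
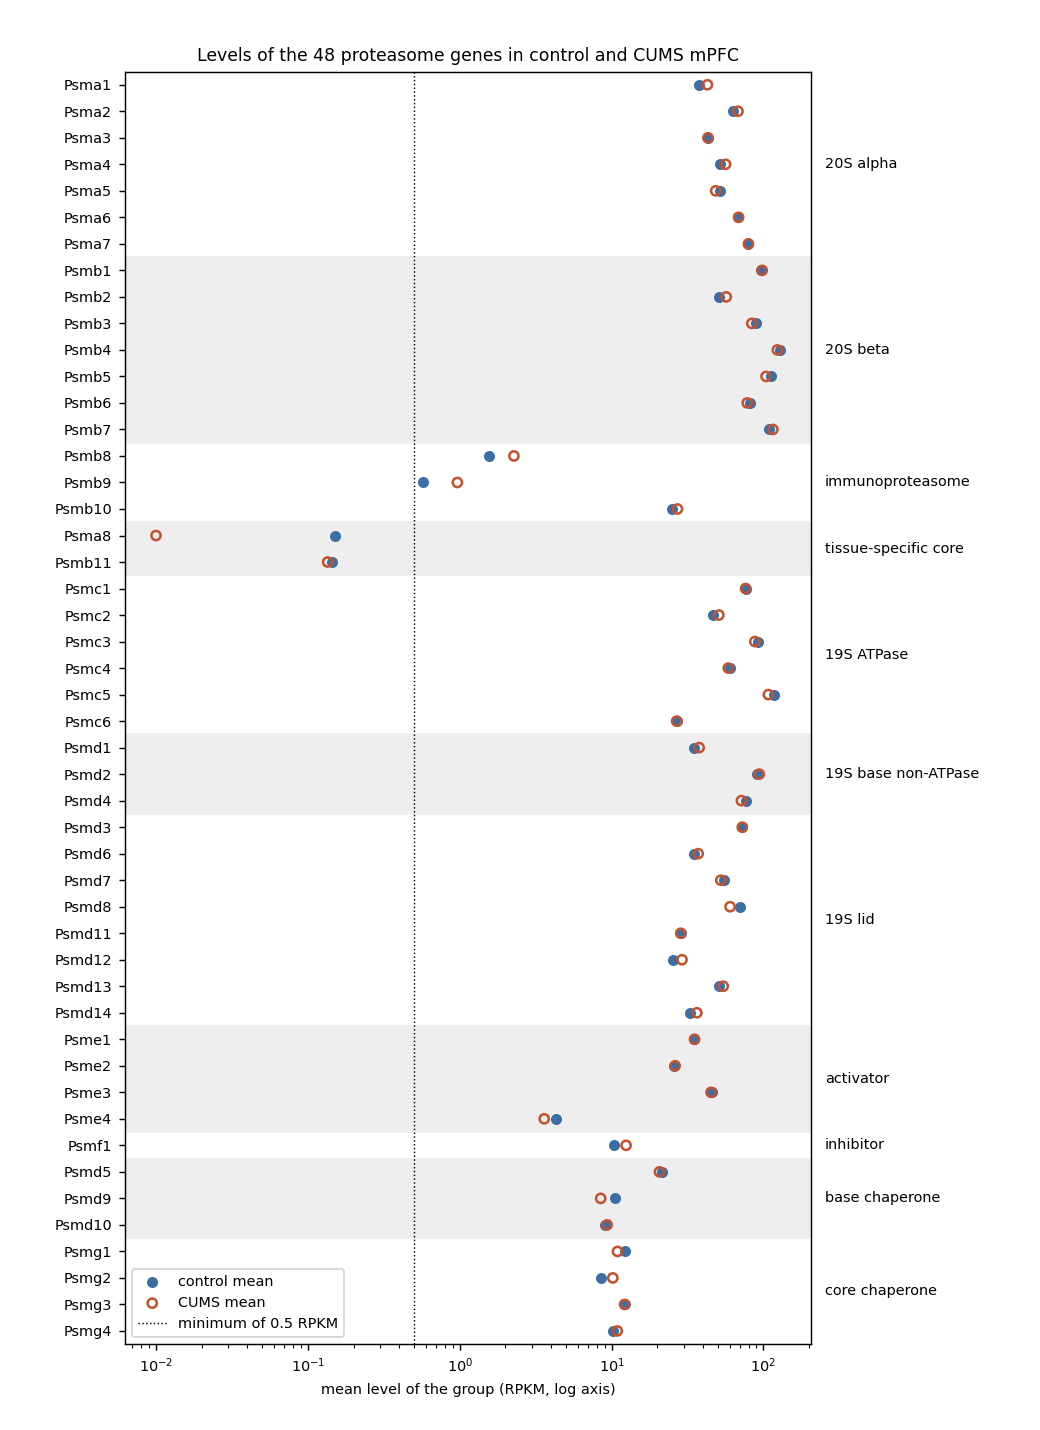
The mean level of each of the 48 proteasome genes in control (filled blue points) and CUMS (open red points), in RPKM on a log axis, ordered by place in the complex. Most points overlap, the 14 subunits of the constitutive core lie between 37.5 and 129 RPKM in control, and Psma8 and Psmb11 lie under the minimum of 0.5 RPKM (dotted line). The CUMS value of Psma8 is listed at 0.01, which stands for 0.

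Fold thresholds were then set beside the shares over all tested genes. With a fold above 1.5, 1 of the 46 members was higher in CUMS (Psmb9) and 0 were lower, while 2.78% of all tested genes were higher and 4.42% were lower. The member share on the higher side was thus near that of all tested genes. With a fold above 1.2, 3 members were higher (Psmb8, Psmb9 and Psmf1) and 1 was lower (Psmd9), against 10.4% and 14.6% of all tested genes. Low genes have noisier ratios, and 43 members had at least 5 RPKM in either group. Among these 43, 1 was higher (Psmf1) and 1 was lower (Psmd9) by more than 1.2-fold, while 5.49% and 8.14% of the 9397 genes with that level were. The SD of the log2 ratios was 0.12 over these 43 members and 0.21 over the 9397 genes, both being spreads between genes and not between mice. Level was not matched in this comparison, since the median in control was 50.9 RPKM for the 43 members and 16.8 RPKM for the 9397 genes.

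**Figure D2:**
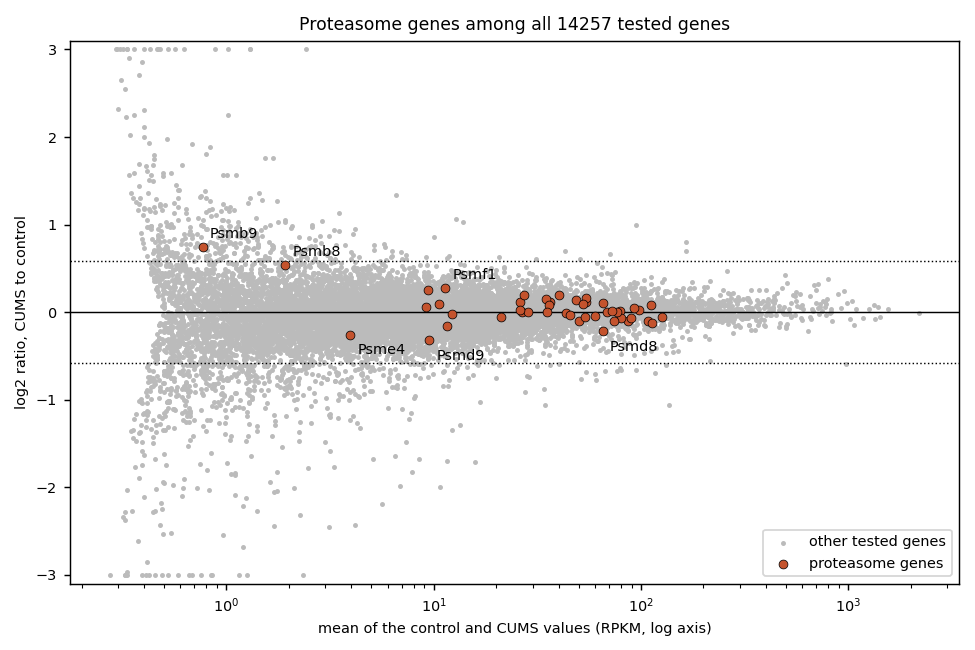
The log2 ratio of CUMS to control means (vertical axis) against the mean of both values in RPKM (log axis) for all 14257 tested genes, with the 46 proteasome genes in red and ratios beyond 3 in size drawn at the edge. Dotted lines mark a fold of 1.5, which only Psmb9 passes among the members, and Psmb8 and Psmb9 lie at the low end of the level axis.

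The precision of each ratio was set by the number of fragments (read pairs counted once) behind it. This number was estimated from the regular steps of the low values, at about 7385524 fragments for each control library and 7440476 for each of the CUMS libraries, and it gave a 95% interval by the exact Clopper-Pearson method. This estimate is well under the sequencing depth stated in the study, for a reason that was not resolved, and a greater depth would narrow the intervals and leave more of them without 0. These counting intervals cover counting error only and hold nothing of the difference between mice. They lay above 0 for 7 members (15.2%), against 12.5% of all tested genes, and below 0 for 4 members (8.70%), against 16.8%. Among the members with at least 5 RPKM, 7 lay above 0 and 3 below, while the shares were 15.9% and 19.3% of the genes with that level. The share of members above 0 was thus near that of all genes, and the share below 0 was under it.

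**Figure D3:**
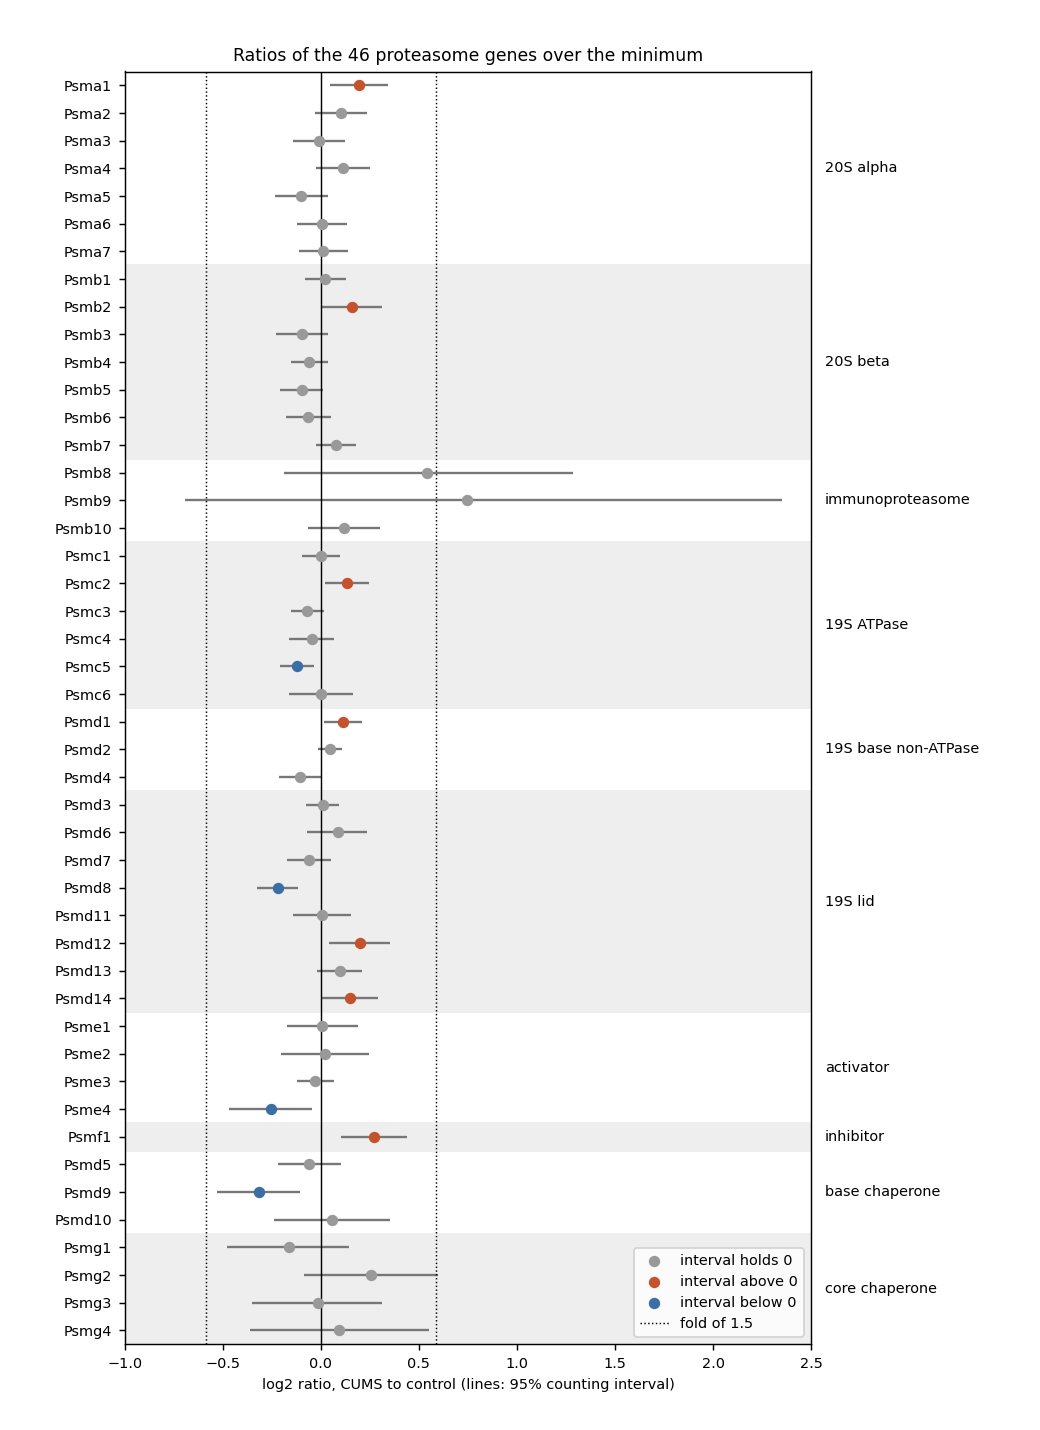
The log2 ratio of CUMS to control means for the 46 members over the minimum (points) with its 95% counting interval (lines), which covers counting error only. Red points mark the 7 members whose interval lies above 0, blue points the 4 whose interval lies below 0, and the dotted lines a fold of 1.5. The intervals of Psmb8 and Psmb9 are the widest because 7 to 41 fragments stand behind each of their means.

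The alpha ring forms the gate of the 20S core. Its subunits had control means from 37.5 to 79.0 RPKM. Of the 7, 5 were higher in CUMS, against 46.6% of all tested genes, with a median log2 ratio of 0.011. Counts by sign, here and in the classes below, include ratios close to 0 and depend on scaling. Of the 46 members 18 were lower, and 23 were when the summed levels of genes with at least 5 RPKM were set equal. Psma1 had the highest ratio, with 37.5 RPKM in control and 42.8 RPKM in CUMS, a log2 ratio of 0.19 (counting interval 0.044 to 0.34). Its gene (Gene ID 26440) spans chr7:114264550-114276116 on GRCm38. Psma5 was the lowest, with 52.0 and 48.5 RPKM and a log2 ratio of -0.10 (interval -0.23 to 0.035). Psma2 (63.4 and 68.0 RPKM) and Psma4 (52.1 and 56.3 RPKM) were higher by 7.27% and 8.02%. Psma3 (43.4 and 43.1 RPKM), Psma6 (68.4 and 68.6 RPKM) and Psma7 (79.0 and 79.6 RPKM) each differed by less than 1%. The ring held no member with a fold above 1.2.

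The beta ring had the highest levels of the whole complex, with control means from 51.0 to 129 RPKM. Of its 7 constitutive subunits, 3 were higher in CUMS and 4 were lower, against 46.6% and 53.2% of all tested genes. The median log2 ratio was -0.058. Psmb2, a subunit without a cutting site, had 51.0 RPKM in control and 56.9 RPKM in CUMS, a log2 ratio of 0.16 (interval 0.0024 to 0.31). The 3 cutting subunits went both ways. Psmb5, which cuts after hydrophobic residues, had 111 and 104 RPKM, a log2 ratio of -0.098 (interval -0.21 to 0.0094), and it was the lowest of the ring. Psmb6, which cuts after acidic residues, had 81.7 and 78.1 RPKM, and Psmb7, which cuts after basic residues, had 109 and 115 RPKM. Their intervals held 0. Psmb1 (96.7 and 98.1 RPKM), Psmb3 (89.5 and 83.8 RPKM) and Psmb4 (129 and 123 RPKM), all without a cutting site, had log2 ratios of 0.021, -0.095 and -0.058. The 14 alpha and beta subunits, which the assembled core holds in equal numbers, differed in mRNA level by 3.43-fold in control and 2.89-fold in CUMS from the lowest (Psma1) to the highest (Psmb4). Their summed level came to 1064 RPKM in control and 1067 in CUMS, a log2 ratio of 0.0038, and the interval from their summed fragments was -0.025 to 0.039.

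The immunoproteasome subunits held the members with the largest ratios, and these were also the least precise. Psmb9 (Gene ID 16912, chr17:34182030-34187330) had 0.575 RPKM in control and 0.965 RPKM in CUMS, a log2 ratio of 0.75, from about 7 and 12 fragments, and its interval ran from -0.70 to 2.35. Psmb8 (Gene ID 16913, chr17:34198195-34201454), which lies near it in the major histocompatibility complex, had 1.56 and 2.27 RPKM, a log2 ratio of 0.54, from about 28 and 41 fragments, with an interval of -0.19 to 1.29. At this depth neither difference could be told from equal levels. Psmb10 (Gene ID 19171, chr8:105935728-105938392) was far more abundant, with 25.1 RPKM in control and 27.2 RPKM in CUMS, a log2 ratio of 0.12 (interval -0.068 to 0.30). All 3 were higher in CUMS, against 46.6% of all tested genes, and none had an interval without 0.

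Set against the subunit that each replaces, the immunoproteasome subunits were minor parts of this tissue. Psmb8 came to 1.41% of Psmb5 in control and 2.19% in CUMS, and Psmb9 to 0.704% and 1.24% of Psmb6. Psmb10 came to 22.9% and 23.6% of Psmb7. As a sum, the 3 immunoproteasome subunits were 9.0% of the 3 cutting subunits in control and 10.2% in CUMS, and most of both sums of the former was Psmb10. The interval of the log2 ratio from the summed fragments of the 3 immunoproteasome subunits was -0.022 to 0.33.

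A pair of core subunits is known from single tissues, Psma8 from testis and Psmb11 from thymus, and both lay under the minimum. Psma8 had 0.15 RPKM in control, from about 4 fragments, and was listed at 0.01 RPKM, which stands for 0, in CUMS. With a floor of 3 fragments over the group, a count of 0 allows up to 0.119 RPKM. The counting interval of its log2 ratio reached up to 0.59, so that the difference could not be told from equal levels at this depth. Psmb11 had 0.145 and 0.135 RPKM, from about 9 fragments in each group. The member closest to the minimum on its other side was Psmb9, with 0.965 RPKM in CUMS.

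In the 19S base, the ATPases were split evenly, with 3 of 6 higher in CUMS, against 46.6% of all tested genes. Their median log2 ratio was -0.023. Psmc2 had 46.3 RPKM in control and 50.9 in CUMS, the highest ratio of the ring, with a log2 ratio of 0.13 (interval 0.022 to 0.25). Psmc5 (Gene ID 19184, chr11:106256185-106263112), the most abundant ATPase, had 117 and 108 RPKM, the lowest ratio, with a log2 ratio of -0.12 (interval -0.21 to -0.036). So the intervals of this pair of ATPases lay on opposite sides of 0. The means of Psmc1 (76.2 and 76.3 RPKM) and Psmc6 (26.8 RPKM in both groups) differed by less than 0.1%. Psmc3 (92.1 and 87.8 RPKM) was lower by 4.68% and Psmc4 (60.6 and 58.7 RPKM) was lower by 3.26%, with intervals that held 0.

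The 3 base subunits without ATPase activity are scaffolds and docking sites. Psmd1 had 34.9 RPKM in control and 37.7 RPKM in CUMS, a log2 ratio of 0.11 (interval 0.016 to 0.21). Psmd2, the member with the most fragments (4028 and 4190), had 90.9 and 93.9 RPKM, a log2 ratio of 0.046 (interval -0.017 to 0.11). Psmd4, the ubiquitin receptor, had 76.9 and 71.5 RPKM, a log2 ratio of -0.10 (interval -0.21 to 0.0049).

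In the lid, 6 of 8 subunits were higher in CUMS, against 46.6% of all tested genes, with a median log2 ratio of 0.047. The higher ones include Psmd3 and Psmd11, whose log2 ratios were only 0.0086 and 0.0046. Psmd12 had 25.4 RPKM in control and 29.1 RPKM in CUMS, a log2 ratio of 0.20 (interval 0.043 to 0.35), and was the highest of the lid. Psmd14, the enzyme that cuts the ubiquitin chain off the substrate, had 32.9 and 36.5 RPKM, a log2 ratio of 0.15 (interval 0.0046 to 0.29). Psmd8 (Gene ID 57296, chr7:29174187-29180673) went the other way, with 70.2 RPKM in control and 60.3 RPKM in CUMS, from about 1585 and 1371 fragments. Its log2 ratio of -0.22 (interval -0.33 to -0.11) was the lowest of all 31 constitutive 26S subunits. Psmd6 (35.0 and 37.2 RPKM) and Psmd13 (50.9 and 54.4 RPKM) were higher by 6.09% and 6.84%, and Psmd7 (54.7 and 52.4 RPKM), the partner of Psmd14 in the deubiquitinating pair, was lower by 4.12%. The scaffold subunits Psmd3 (72.1 and 72.6 RPKM) and Psmd11 (28.4 and 28.5 RPKM) differed by less than 1%. The 17 subunits of the 19S particle summed to 992 RPKM in control and 982 in CUMS. The median 19S subunit had 0.742 of the level of the median 20S subunit in control and 0.741 in CUMS.

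The activators and the inhibitor differed more between members. Psme1 (35.0 and 35.2 RPKM) and Psme2 (25.8 and 26.2 RPKM), which form the interferon-inducible cap PA28, had log2 ratios of 0.0072 and 0.022. Psme3 (46.1 and 45.2 RPKM), the nuclear form of this cap, had a log2 ratio of -0.029. Psme4 (Gene ID 103554, chr11:30771775-30881150) encodes the large nuclear activator PA200 and had the lowest level of the activators. It had 4.30 RPKM in control and 3.60 RPKM in CUMS, from about 410 and 346 fragments, a log2 ratio of -0.26 (interval -0.47 to -0.046). Psmf1 (Gene ID 228769, chr2:151716062-151744199), named as a proteasome inhibitor, had 10.3 RPKM in control and 12.5 RPKM in CUMS, from about 540 and 656 fragments. Its log2 ratio of 0.27 (interval 0.10 to 0.44) was the largest of the members with at least 5 RPKM.

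The assembly chaperones act only while the complex is built, and their levels were low, with a median of 10.6 RPKM in control and 10.9 RPKM in CUMS. Among the base chaperones, Psmd9 (Gene ID 67151, chr5:123228190-123250126) had 10.6 RPKM in control and 8.48 RPKM in CUMS, from about 407 and 329 fragments, a log2 ratio of -0.32 (interval -0.53 to -0.10). This was the lowest ratio of all tested members. The other base chaperones Psmd5 (21.5 and 20.7 RPKM) and Psmd10 (8.99 and 9.35 RPKM) had intervals that held 0. Of the 4 core chaperones, Psmg2 was the highest (8.55 and 10.2 RPKM, log2 ratio 0.25, interval -0.086 to 0.60) and Psmg1, its partner, the lowest (12.2 and 10.9 RPKM, log2 ratio -0.16, interval -0.48 to 0.14). Psmg3 (12.3 and 12.2 RPKM) and Psmg4 (10.2 and 10.9 RPKM) lay between them. All 4 intervals held 0, with 80 to 184 fragments behind each mean.

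Some members share sequence or exons with other genes, and the use of strand in counting was not stated. Longest transcripts in GENCODE M21 had a stretch of at least 100 bases with at least 98% identity to another gene for 4 tested members. This covered 76.5% of Psma5 (copy Gm8394), 88.4% of Psmb5 (Gm3375), 82.5% of Psme2 (Psme2b) and 23.4% of Psma3 (Gm13835), so that the values of these members are uncertain. Exons of 13 members overlapped those of another gene, on the opposite strand in most cases. Of the members with large ratios, Psmd9 shared 25.5% of its exon bases with the noncoding Gm26745, Psmb8 14.7% with the antisense Gm20496 and Psmb9 5.79% with Tap1, all on the opposite strand. Without strand, reads of such partners cannot be told apart.

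The second question was whether genes that act with the proteasome differed as well. Of 40 tested genes in 7 lists, 23 were higher in CUMS and 17 lower, with a median log2 ratio of 0.020. Over all tested genes, 46.6% were higher and 53.2% lower, and the interval lay above 0 for 12.5% and below 0 for 16.8%. Of 8 other proteasome parts, 5 were higher, and 3 of these had an interval above 0. These were the deubiquitinases Uchl5 (10.5 and 12.6 RPKM, log2 ratio 0.26, the highest of the list) and Usp14 (26.5 and 28.9 RPKM, 0.12), and Shfm1 (66.6 and 75.8 RPKM, 0.19), a small lid subunit without a Psm name. The lowest was Txnl1 (24.5 and 23.3 RPKM, log2 ratio -0.075), a thioredoxin-like protein bound to the 19S particle.

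All 5 tested genes that act on the Nfe2l1 and Nfe2l2 route of proteasome gene control, or on the nuclear import of the complex (Akirin2), had a lower mean in CUMS, with small ratios. Nfe2l1 had 124 RPKM in control and 120 RPKM in CUMS, a log2 ratio of -0.042. The protease Ddi2, which activates the Nfe2l1 protein, was the lowest (7.17 and 6.45 RPKM, -0.15), and Ngly1, which removes its sugars, the highest (6.57 and 6.50 RPKM, -0.017). The intervals of all 5 held 0. The 4 ubiquitin genes were all lower too. Ubb had 1453 and 1401 RPKM, a log2 ratio of -0.053 (interval -0.078 to -0.027) and Rps27a had the highest ratio (249 and 241 RPKM, -0.045). The main ubiquitin-activating enzyme Uba1 had 137 and 130 RPKM, a log2 ratio of -0.070 (interval -0.12 to -0.026). Of the other activating enzymes, Uba6 was the lowest (1.86 and 1.70 RPKM, -0.14) and Uba1y the highest (0.385 and 0.505 RPKM, 0.39). Among 9 genes that bring ubiquitylated proteins to the proteasome, 8 were higher. The highest was Ufd1l (29.7 and 32.9 RPKM, log2 ratio 0.15, interval 0.012 to 0.28). Sqstm1 was the lowest (262 and 250 RPKM, log2 ratio -0.070, interval -0.12 to -0.024). Of the 9 intervals, 2 lay above 0 and 1 below, against 12.5% and 16.8% of all tested genes, and the others held 0.

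The last pair of lists belongs to the setting in which the immunoproteasome is known. Of 7 genes of antigen processing, 6 were higher in CUMS, against 46.6% of all tested genes, with a median log2 ratio of 0.12, but each interval held 0. Tap1, the peptide transporter beside Psmb9, was the highest (1.32 and 1.69 RPKM, log2 ratio 0.35, interval -0.15 to 0.89), and H2-K1 the lowest (15.2 and 14.9 RPKM, -0.024). Of the 4 tested transcription factors of the interferon response, 3 were higher, each with an interval above 0, against 12.5% of all tested genes with such an interval. Irf1 was the highest (2.66 and 4.04 RPKM, log2 ratio 0.60, interval 0.19 to 1.01), and Stat2 (6.80 and 8.81 RPKM) had a log2 ratio of 0.37 (interval 0.19 to 0.56). Irf8 was the lowest (2.30 RPKM in both groups, -0.0031), and Nlrc5, the factor of class I genes, lay under the minimum with 0.07 and 0.175 RPKM. Irf1 and Stat2 were higher in the same means in which Psmb8 and Psmb9 were higher and Psme1 and Psme2 nearly equal, and their part in these values was not tested.

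**Figure D4:**
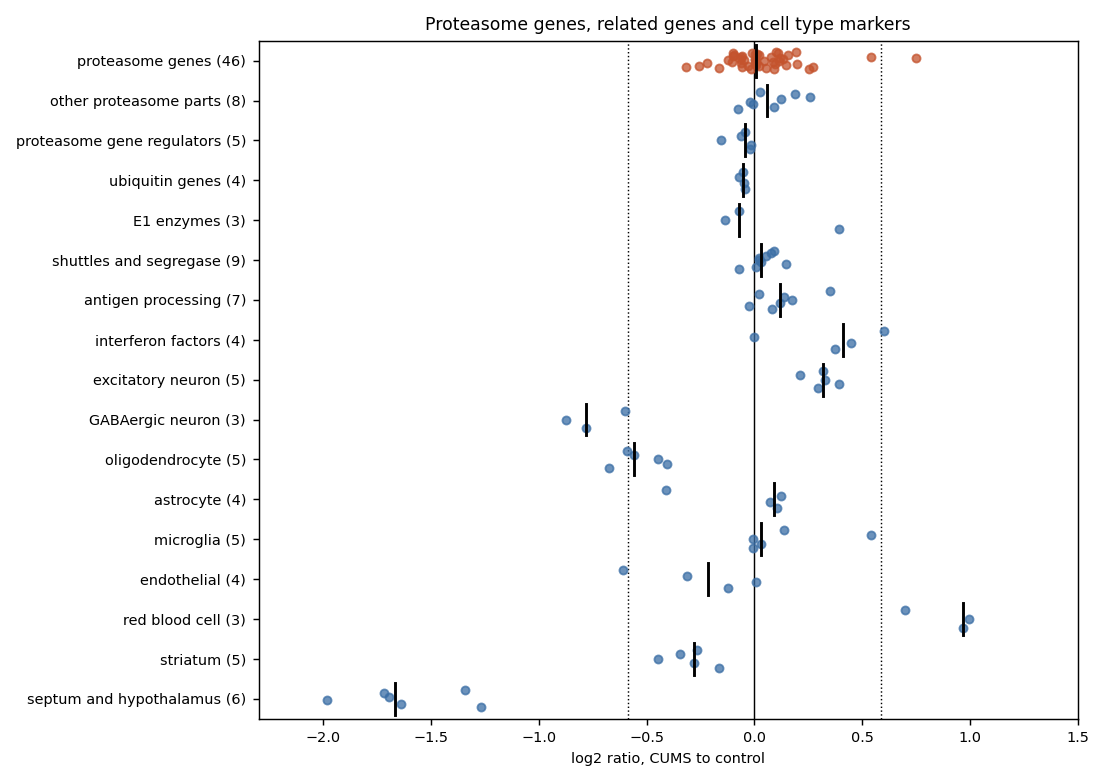
The log2 ratio of CUMS to control means for each tested gene (points) of the proteasome genes (red) and of the related and cell type lists (blue), with the number of genes in brackets, the median of each list (black bar) and a fold of 1.5 (dotted lines). Not drawn is the neutrophil list, whose log2 ratios (3.58 to 6.52) lie beyond the axis. The proteasome genes center on 0, while the excitatory neuron list has a median of 0.32 and the GABAergic neuron list one of -0.78.

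Marker genes of cell types and of other brain regions differed in the same table. The study itself lists several of them as changed in these libraries. These are in the GABAergic neuron, oligodendrocyte, septum and hypothalamus, red blood cell and neutrophil lists, whose counts are therefore no independent observation. Over all tested genes, 46.6% were higher and 53.2% lower. Markers of excitatory neurons were present at high level and all 5 were higher in CUMS (sum 1536 and 1841 RPKM), while all 3 of GABAergic neurons were lower (279 and 173 RPKM). Lower in CUMS were also all 5 of oligodendrocytes (1614 and 1081 RPKM), all 5 of striatum (271 and 234 RPKM) and all 6 of septum and hypothalamus (86.1 and 28.1 RPKM), which are other regions of the forebrain. Astrocyte genes were split, with a near equal sum (244 and 243 RPKM). Of the 4, 3 were higher, 1 of them with an interval above 0. Gfap was lower (60.4 and 45.4 RPKM, log2 ratio -0.41, interval -0.50 to -0.32). Of endothelial genes 1 of 4 was higher (57.5 and 42.7 RPKM). In bulk tissue fewer cells of a type and less RNA per cell cannot be told apart, and the part of these shifts in the proteasome ratios was not tested. Of the cells known for the immunoproteasome, 3 of 5 microglia genes were higher (128 and 135 RPKM, median log2 ratio 0.030). Blood genes were higher too, with 3 of 3 of red blood cells (190 and 332 RPKM) and 4 of 4 of neutrophils, the latter from about 4 fragments in control and 65 in CUMS. The neutrophil gene Camp was listed at 0.01 RPKM, which stands for 0, in control. It had 0.92 RPKM in CUMS, from about 8 fragments, the lowest CUMS level of the 4. The part of blood cells in the values of Psmb8 and Psmb9 was not tested.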

How the data were processed

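The authors sequenced poly(A) mRNA as paired reads, filtered them with SolexaQA and aligned them to mm10; the submitters' processing notes name TopHat 1.0.12 and Bowtie 0.11.3. The deposited values were RPKM, averaged by the authors over the 2 libraries of each group. The gene annotation is not given in the sources used here. The deposited log2 ratio, probability and direction of each gene are the authors' own comparison and were not used. From the means, log2(CUMS/control) was computed for genes whose control or CUMS mean reached 0.5 RPKM, with no pseudocount. The planned test over libraries could not be made, since the table holds means only.

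Depth was estimated from genes shorter than 1000 bases whose product of RPKM and length was under 350 (406 control and 392 CUMS values). The best steps, sought between 20 and 200, were 67.7 and 67.2, and 86.5% and 86.2% of products came within 0.15 of a multiple of the step, against 30% for evenly spread values. The method was tested on simulated data in which each fragment added a step. That test therefore cannot show why the estimate is under the depth stated in the study. PCR duplicates could not be removed, so intervals and floors (3 fragments) cover counting error only. The text names all members and, of each related list, the highest and lowest, with examples; some list members are not reported here. Usp14, Shfm1, Nfe2l1, Akirin2, Ubb, Uba1, Stat2, Nlrc5, Gfap and Camp were named after their values were seen. The members and lists were chosen with earlier results of these data known. Coordinates and promoters are from RefSeq GRCm38.p6 (48 of 48 members matched), the same build as mm10. Near copies were sought with blastn in GENCODE M21 transcripts. Python 3.11.15, NumPy 2.4.6, pandas 2.3.3 and SciPy 1.17.1 were used. The alternatives were other minimums, pseudocounts, scalings, thresholds and depths.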

Additional observations from a re-analysis of the deposited data

How the results depend on the processing

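No paired analysis was possible because the columns are means of each group, and leaving out each replicate was not run for the same reason. Of 95 alternative values, 83 stayed within a set margin of the reported one. For counts the margin was 1.5 times, and for sums and ratios the counting error of summed fragments. For medians it was the typical counting error of a single gene (0.13 over all members), which is not the error of a median and is lenient. The immunoproteasome median of 0.54 stayed within its margin, although it was 0.12 with a minimum of 5 RPKM (Psmb10 only) and 0.32 with a pseudocount of 1 RPKM. The median log2 ratio of the members stayed between 0.00026 (equal totals) and 0.023 (median over all tested genes, -0.015, set to 0), and the number of lower members went from 17 to 23 of 46 under these scalings. The number of members with a fold above 1.5 was 1, Psmb9. It was 2 with no minimum, where Psma8 was added, and 0 with a minimum of 5 RPKM, with a pseudocount of 0.5 or 1 RPKM, over the 26S subunits only, with a fold of 2, and without members that have a near copy or shared exons, a choice made after seeing the data. With a fold of 1.2 it was 4. The number of intervals without 0 was 11, and it was 23 with 2 times the estimated fragments and 3 with 0.5 of them, so that it depends on the depth estimate. The immunoproteasome over constitutive ratio had a log2 difference of 0.18 as a sum, 0.64 for Psmb8 over Psmb5, 0.81 for Psmb9 over Psmb6 and 0.038 for Psmb10 over Psmb7, the most abundant pair. Of 60 class medians under alternatives, 2 changed sign, both of the activators (0.0072 and 0.0043).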
